A study of Mus musculus with 4 samples.

Results

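RNA-seq of Morc3 rescue and wild-type mouse embryonic stem (ES) cells was examined for 43 genes of sugar metabolism and of the response to low oxygen. The genes were taken by name: enzymes of glycolysis and of the pentose phosphate pathway, glucose and lactate transporters, oxygen sensors and hypoxia-inducible genes. All 43 were found among the 24054 gene rows of the count tables, and 42 of them had enough reads to be among the 13267 genes tested. Morc3 is a nuclear ATPase that the study examines as a silencing factor of endogenous retroviruses, and the comparison asked how far cells that carry Morc3 again resemble wild-type cells.

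The wild-type group was 1 library of the feeder-independent ES cell line wt26. The rescue group was 3 libraries, 1 from each of the clones T131-3C, T131-3D and T131-3M. These clones were made from 1 Morc3 knock-out clone of wt26, called KO27-2, by a PiggyBac transposon with the Morc3 cDNA under the human PGK promoter and a puromycin resistance gene, and were selected with puromycin. The 3 clones therefore share 1 knock-out event, each is a single clone, and a property of that parent clone cannot be told apart from an effect of the rescue. All cells grew without feeders on gelatin in high-glucose medium with serum and LIF. The knock-out libraries were not analysed here.

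Glycolysis splits glucose into pyruvate, which cells can turn into lactate or pass to the mitochondria. The pentose phosphate pathway branches off from glucose 6-phosphate and supplies NADPH and ribose for nucleotides. When oxygen is short, prolyl hydroxylases no longer mark HIF transcription factors for destruction by the VHL ubiquitin ligase, and HIF raises many glycolytic genes together with its other targets. Mouse ES cells in serum and LIF are known for active glycolysis.

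Read pairs assigned to genes numbered 18789457 for wild type, and for the clones from 13620914 to 15479190. Levels are given as counts, or as CPM (counts scaled to library size by TMM), and per kilobase (kb) of exon where genes are compared with each other. Morc3 had 3065 wild-type counts against 8830, 7225 and 9437 in T131-3C, T131-3D and T131-3M, giving a log2 fold change of 1.87 ± 0.17 (SE) with an adjusted p of 0.108. All 3 clones were above wild type for the gene that the transposon carries. The 10 ES cell markers summed to 4408 CPM in wild type and to between 4551 and 4679.6 CPM in the clones. Of these markers, 4 were above wild type in every clone, 1 was below (Pou5f1) and 5 were on both sides. Nanog differed most, with 300 CPM in wild type against 468, 358 and 481 CPM in T131-3C, T131-3D and T131-3M. The summed neural markers were 89.3 CPM in wild type and 58.0 to 67.9 CPM in the clones. Most of this was Tubb3, with 73.8 CPM in wild type against 49.3, 40.8 and 40.5 CPM. The trophoblast sum was 61.3 CPM against 55.6 to 87.4 CPM, and the fibroblast sum 32.9 CPM against 20.4 to 45.0 CPM. In wild type these were mostly Tfap2c with 56.2 CPM and Thy1 with 31.7 CPM. The primitive endoderm and mesoderm sums were at most 4.97 CPM in every library. In bulk libraries, fewer cells of a type and less RNA per cell cannot be told apart.

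The letters ACGTG and GCGTG are the core of the hypoxia response element, the sequence that HIF binds. Both were searched on both strands in 300-base promoter windows from RefSeq (GRCm38.p6), which held 40 of the members. The palindrome CACGTG counts on both strands. Of the 56 member promoters, 44 (78.6%) held a match, compared with 61.8% of the promoters of all genes tested and 43.8% of the 32851 promoters in the table. These sets also differed in GC content, which was 61.7%, 60.9% and 53.8% in that order. Short stretches upstream of the start sites are shown because their genes recur below: for Egln3, P4ha1 and P4ha2 the clones followed one order, whereas Ldha and Pgk1 stood close to wild type in every clone. Capitals mark the matches, each sequence reads 5′ to 3′ on the gene's strand, and none overlaps a GENCODE exon. The P4ha1 and Ldha stretches precede a start site that lies inside the RefSeq gene, past its outermost start.
Egln3 (chr12:54204065-54204124, minus strand): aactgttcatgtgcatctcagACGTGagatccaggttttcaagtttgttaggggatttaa
P4ha1 (chr10:59323236-59323295, plus strand): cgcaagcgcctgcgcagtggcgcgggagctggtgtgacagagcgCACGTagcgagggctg
P4ha2 (chr11:54100827-54100886, plus strand): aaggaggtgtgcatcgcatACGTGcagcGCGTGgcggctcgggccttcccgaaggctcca
Ldha (chr7:46845742-46845801, plus strand): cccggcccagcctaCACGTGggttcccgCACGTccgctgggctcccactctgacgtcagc
Pgk1 (chrX:106186941-106187000, plus strand): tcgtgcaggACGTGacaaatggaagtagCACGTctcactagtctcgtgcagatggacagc
A match in these windows is a description of the letters, and binding was not measured.

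The members took up nearly the same part of the transcriptome in the rescue clones as in wild type. Their share of all gene counts was 1.13% in wild type, with a 95% exact binomial interval from 1.13% to 1.14%, and 1.12% ± 0.028 (SD, n = 3) in the clones. The clone values of 1.12%, 1.15% and 1.10% lay on both sides of wild type. Intervals cover counting error only. By group, the share was above wild type in every clone for upper glycolysis, the pentose phosphate pathway and the hypoxia targets. These groups include Pfkp, Tkt and Ero1l, the members on chromosomes 13 and 14, whose gene medians were shifted in clones as described below. Group shares without these members were not compared. The share was below in every clone for lower glycolysis (from Gapdh to pyruvate kinase), the lactate genes and the oxygen-sensing genes. For the oxygen-sensing genes, T131-3C had 0.0398% against 0.0400% in wild type, which lay inside its interval of 0.0388% to 0.0409%. Without the ribosomal RNA gene Rn45s in the total, T131-3C was above wild type, with 0.0474% against 0.0472%. The clones lay on both sides for the glucose transporters and the genes that set the flux. Pkm, Aldoa, Gapdh and Ldha alone made up 54.1% of the members' counts in wild type, and 51.0% to 51.9% for the clones. With 1 wild-type library, a permutation of the labels of a single value cannot give a p below 0.25.

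No member passed the adjusted p of 0.01 of edgeR's quasi-likelihood test, in which 0.00754% of all genes tested were called, that is 1 gene. DESeq2 also called no member, where 0.365% of all genes were called. With limma-voom no gene at all was called, so its lack of a called member says nothing about the members. At an unadjusted p under 0.05, 2 of the 42 members tested were higher in the rescue clones (Tkt and Ero1l), where 5.92% of all genes were, and 2 were lower (Pkm and Arnt), where 4.42% of all genes were. All 3 clones were above wild type for 15 members, or 35.7%, against a background of 28.7%. All 3 were below for 12 members, or 28.6%, against 28.4%. The median log2 fold change was 0.015 over the members and 0.0051 over all genes, and the quartiles of the members were -0.08 and 0.21. A difference of at least 0.5 on the log2 scale was found for 3 members (Ero1l, Eno2 and Ldhb), or 7.14%, while 14.2% of all genes reached it. These shares were close to or below the background, except for the members above wild type in every clone.

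**Figure D1:**
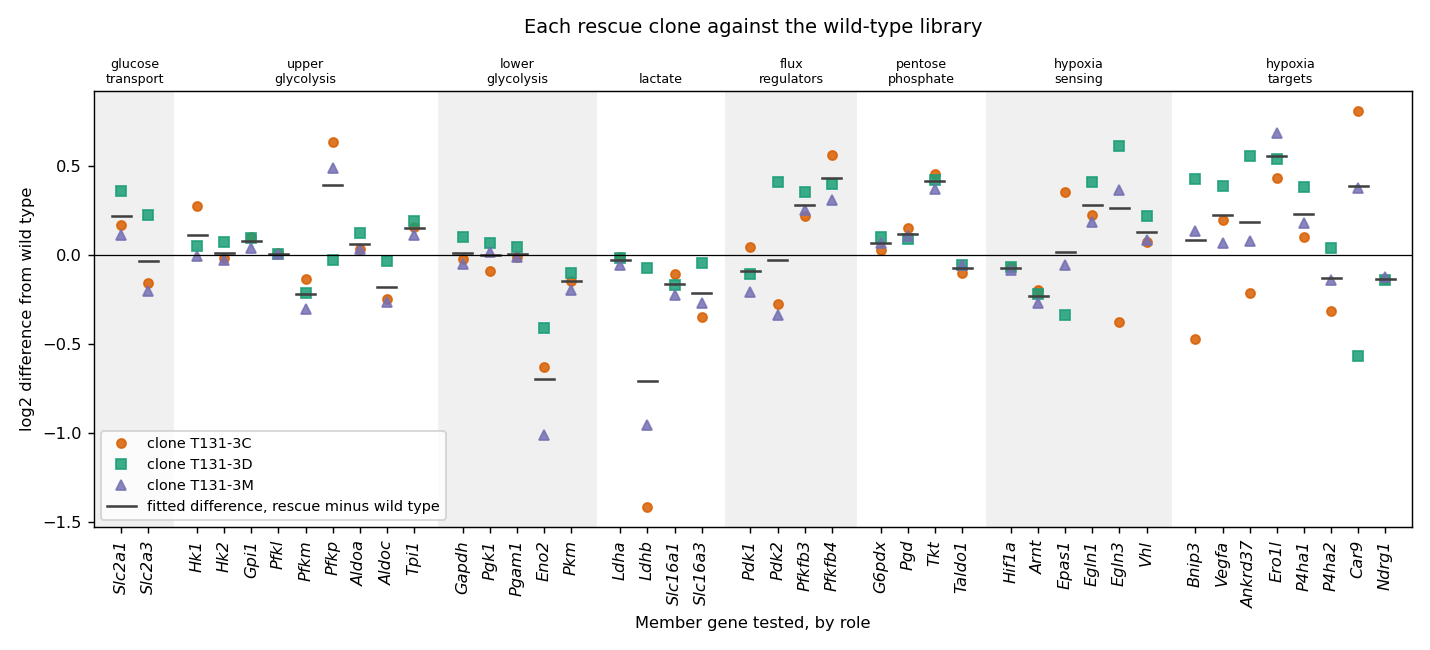
Log2 difference of each rescue clone from the wild-type library (y axis) for the 42 members tested, ordered by role along the x axis. Symbols are the 3 clones and bars the fitted rescue minus wild-type difference, which runs from -0.71 (Ldhb) to 0.56 (Ero1l). Most glycolytic enzymes lie near 0, except Pfkp and Eno2, and Ldhb and several hypoxia genes are spread widely among the clones.

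The result rests in part on 1 clone. Without T131-3D, the fit called 420 genes (3.17% of those tested) instead of 1, and among them 3 members: Tkt with a log2 fold change of 0.41 and an adjusted p of 0.00209, Pfkp with 0.57 and 0.000644, and Ldhb with -1.17 and 0.000664. Pfkp and Ldhb are members for which T131-3D lay near the wild-type level and the other clones did not. Without T131-3C or without T131-3M, no member was called.

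Glucose enters ES cells through the transporters Slc2a1 and Slc2a3, better known as GLUT1 and GLUT3. Slc2a3 had the higher level per kb in wild type, with 128 CPM per kb, and the clones had 114, 149 and 111 in the order T131-3C, T131-3D and T131-3M. The raw counts behind these levels were 9642 for wild type, then 6106, 8606 and 6826. T131-3D was thus above wild type and the other clones below, and the log2 fold change was -0.030 ± 0.17 (SE). For Slc2a1 all 3 clones were above wild type, by 0.17, 0.36 and 0.11 on the log2 scale. Its share of the pair, per kb, was 45.7% in wild type and 50.2% ± 1.9 (SD, n = 3) in the clones.

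Among the 9 enzymes from hexokinase to triose phosphate isomerase, none passed the test, and the median log2 fold change was 0.065. Aldoa, the main aldolase, had the highest level per kb of this group. It had 22381 wild-type counts against 16201, 18594 and 18622 in the clones, or 1174 CPM against 1202, 1278 and 1202. The clones lay just above wild type, with a log2 fold change of 0.065 ± 0.062 (SE). Hk2, the inducible hexokinase, supplied 81.1% of the Hk1 and Hk2 level per kb in wild type and 80.0% ± 1.9 (SD, n = 3) in the clones. For Pfkl, the liver-type phosphofructokinase, the clones were within 0.013 of wild type on the log2 scale, whereas Pfkm, the muscle type, was lower in every clone, by 0.13 to 0.30 in size.

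Pfkp, the platelet-type phosphofructokinase, differed among the clones, and is described although it did not meet the rule for genes given in full. It had 6049 wild-type counts against 6663, 4530 and 6914 in T131-3C, T131-3D and T131-3M, or 317 CPM against 494, 311 and 446. T131-3C and T131-3M were above wild type, by 0.64 and 0.49 on the log2 scale, and T131-3D was level with it at -0.027. The fitted log2 fold change was 0.40 ± 0.25 (SE), with an adjusted p of 0.617. Pfkp thereby made up 51.9% of the phosphofructokinase level per kb in wild type, against 62.9%, 52.0% and 61.1% in the clones. The gene lies on chromosome 13, where the median of the 512 genes tested differed from wild type by 0.48, 0.026 and 0.48 in the same clones. Less the chromosome median, Pfkp differed by 0.16, -0.053 and 0.0094, and the part of the chromosome in its difference was not tested.

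**Figure D2:**
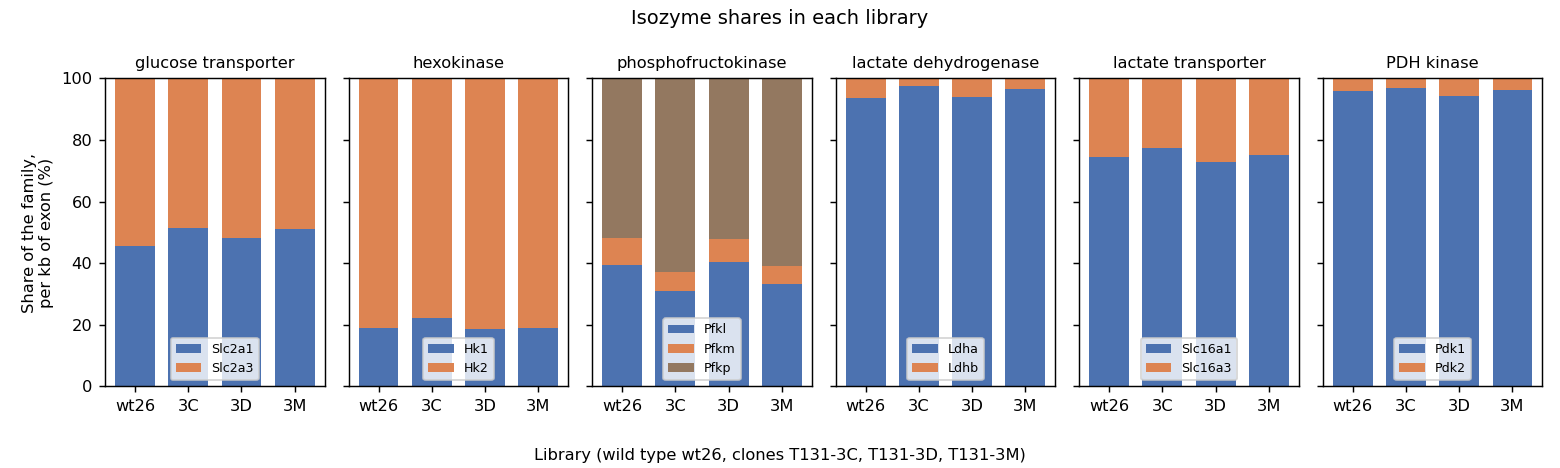
Share of each isozyme in the summed level of its family, per kb of exon, in percent (y axis) for each library (x axis). Pfkp takes 51.9% in wild type against 62.9%, 52.0% and 61.1% in clones T131-3C, T131-3D and T131-3M, and Ldhb 6.26% against 2.44%, 6.03% and 3.44%, while Hk2 and Pdk1 keep most of their families in all 4 libraries.

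The second stage of glycolysis, from Gapdh to pyruvate kinase, held the most abundant members. Per kb of exon, Pkm ranked 14 among 13168 genes in wild type, with clone ranks of 17 to 20. Gapdh ranked 26, with clone ranks of 24 or 25. Pkm encodes the muscle pyruvate kinase, which makes pyruvate and ATP in the last step, and its 50682 wild-type counts compared with 32348, 36099 and 36013 in the clones. In CPM these were 2657 against 2400, 2481 and 2325, so that each clone was below wild type. The log2 fold change was -0.15 ± 0.058 (SE), with an edgeR p of 0.0474 and an adjusted p of 0.479. Gapdh, Pgk1 and Pgam1 had log2 fold changes of 0.013, 0.0024 and 0.010, and for each of them the clones lay on both sides of wild type.

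Both enolases among the members had few reads. Eno2, the neuronal enolase, had 67 wild-type counts against 30, 38 and 26 in the clones, or 3.51 CPM against 2.23, 2.61 and 1.68. All clones were lower, with a log2 fold change of -0.70 ± 0.31 (SE) and an adjusted p of 0.517. Eno1, the enolase that most cells use, was the 1 member with too few reads for the test, with 11 wild-type counts against 5, 3 and 8 in the clones. The row of its near-identical copy Eno1b held 1777 wild-type counts against 1258, 1397 and 1439 in the clones, with a log2 fold change of 0.011. Of the 50-base stretches of the longest Eno1 transcript, 72.2% also occur in transcripts of other genes, Eno1b foremost. The Eno1 counts are therefore uncertain, and no enolase shares are given. Reads of other members can be lost to copies as well, since 82.5% of such stretches were shared for Gapdh, 68.0% for Pgk1, 62.4% for Bnip3, 41.5% for Pgam1, 34.4% for Pkm and 27.0% for Ldhb.

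**Figure D3:**
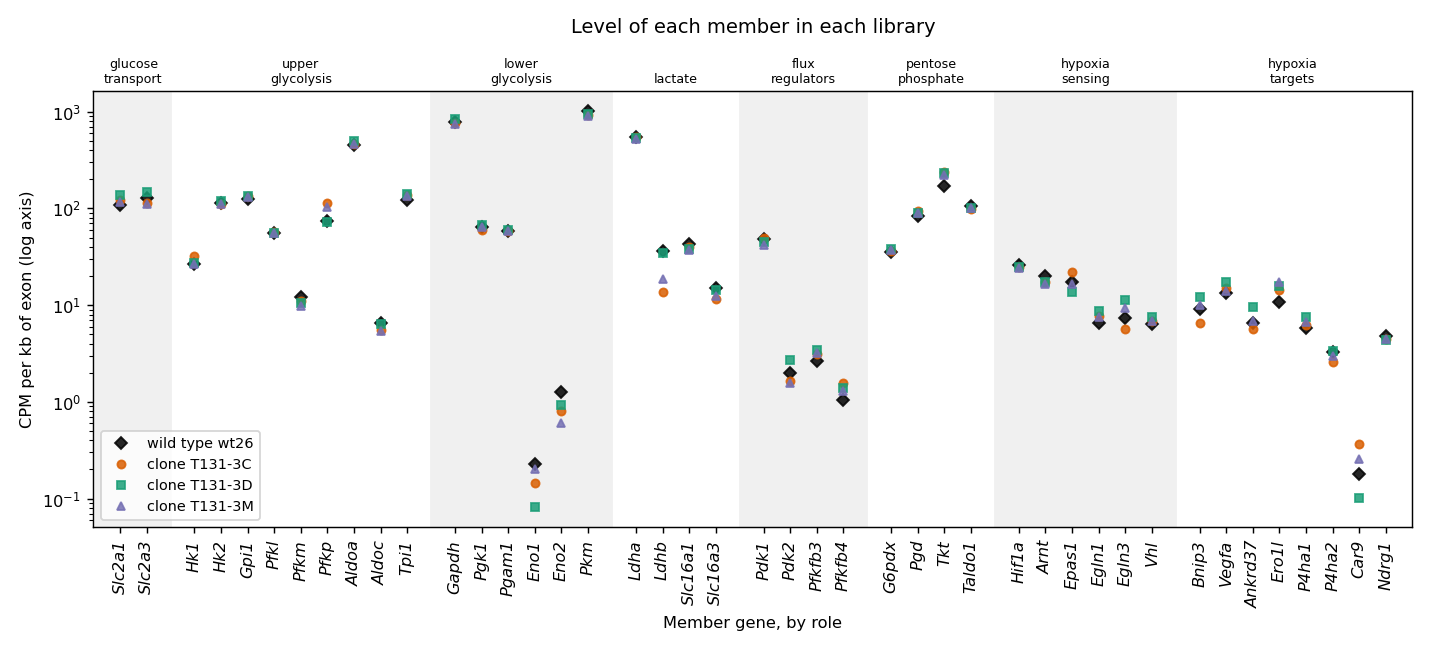
Level of all 43 members in each library as CPM per kb of exon on a log axis, by role along the x axis. Pkm, Gapdh, Ldha and Aldoa are highest, with 1022, 780, 547 and 458 CPM per kb in wild type, and Eno1 and Car9 are lowest, with 0.227 and 0.181.

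All 4 lactate members were below wild type in every clone, a side on which 28.4% of all genes tested lay. Their median log2 fold change was -0.19, and none of them passed the test. Ldha, the lactate dehydrogenase that favours lactate formation, was the most abundant. It had 19766 wild-type counts against 13891, 14902 and 15441 in the clones, or 1036 CPM against 1030, 1024 and 997, and the differences were within 0.056 on the log2 scale. Ldhb, the isozyme that favours pyruvate, had 908 wild-type counts against 239, 658 and 379 in T131-3C, T131-3D and T131-3M. In CPM these were 47.6 against 17.7, 45.2 and 24.5. T131-3D was near wild type, whereas T131-3C and T131-3M were lower by 1.42 and 0.96 in size on the log2 scale. The fitted value was -0.71 ± 0.45 (SE), with an adjusted p of 0.619, and 96.2% of all genes tested had a smaller range among the clones. Ldhb accounted for 6.26% of lactate dehydrogenase per kb in wild type, against 2.44%, 6.03% and 3.44% in the clones. The lactate transporters Slc16a1 and Slc16a3 had log2 fold changes of -0.16 and -0.21.

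Of the genes that set the flux, Pdk1 was the most abundant per kb. It encodes a kinase that switches off pyruvate dehydrogenase and so keeps pyruvate out of the mitochondria. Wild type gave 4739 counts and the clones 3456, 3362 and 3332, or 248 CPM against 256, 231 and 215. The clones lay on both sides of wild type. Pdk1 made up 96.0% of the Pdk1 and Pdk2 level per kb in wild type and 95.8% ± 1.3 (SD, n = 3) in the clones. Pfkfb3 and Pfkfb4, whose enzymes control the level of the phosphofructokinase activator fructose 2,6-bisphosphate, were above wild type in every clone. Their log2 fold changes were 0.28 ± 0.13 and 0.44 ± 0.24 (SE), with adjusted p of 0.542 and 0.574 in edgeR.

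In the pentose phosphate pathway, Tkt had the smallest p of all members. Transketolase, its product, moves carbon units between sugar phosphates in the non-oxidative branch. Tkt had 10590 wild-type counts against 10267, 10820 and 11144 in the clones, or 555 CPM against 762, 744 and 719. All clones lay above the wild-type library, a side on which 28.7% of all genes tested lay in every clone. The clones were close to each other. The log2 fold change was 0.42 ± 0.062 (SE), with an edgeR p of 0.00067 and an adjusted p of 0.189. The other 3 enzymes were nearer to wild type, at 0.068 for G6pdx and 0.12 for Pgd, which make NADPH, and -0.070 for Taldo1, the transaldolase. Summed, the 4 genes took 0.0993% of all gene counts in wild type, against 0.119%, 0.117% and 0.116% in the clones. Most of these counts were from Tkt. Of the groups of members, this one had the smallest median range among the clones, 0.069 on the log2 scale against 0.24 over all genes. The genes compared were not matched for their level. Single members of other groups had smaller ranges, such as Pfkl with 0.0075.

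Tkt lies on chromosome 14, as does Ero1l, the other member with a p under 0.05 and a higher level. The median of the 465 genes tested on this chromosome was above wild type by 0.34, 0.34 and 0.35 on the log2 scale in T131-3C, T131-3D and T131-3M. Of these genes, 365 were above wild type in every clone. Tkt exceeded the chromosome's median by 0.11, 0.077 and 0.028, and Ero1l by 0.091, 0.19 and 0.34. On the other chromosomes with members, except chromosome 13, no median differed from 0 by more than 0.071 in size. With each library centred by chromosome, the log2 fold changes were 0.073 for Tkt, 0.21 for Ero1l and 0.043 for Pfkp, and neither Tkt nor Ero1l had a p under 0.05. Over the 39 members tested on other chromosomes, the median log2 fold change was 0.012, none was higher at a p under 0.05, and Pkm and Arnt were lower. DNA copy number was not measured in these libraries, and the part of the chromosome in these differences was not tested.

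**Figure D4:**
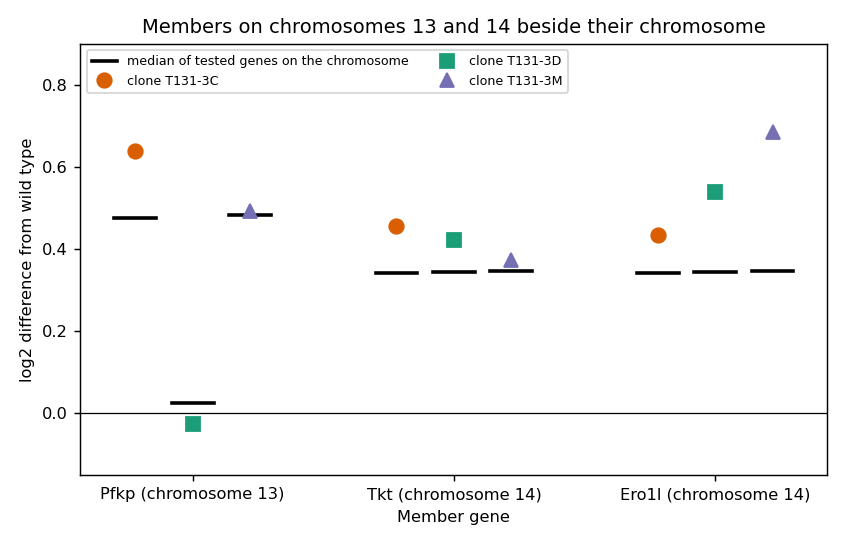
Log2 difference from wild type (y axis) of the members on chromosomes 13 and 14 (x axis) in each rescue clone (symbols), with the median of all genes tested on the same chromosome in that clone (bars). Pfkp lies at 0.64, -0.027 and 0.49 beside chromosome medians of 0.48, 0.026 and 0.48, and Tkt lies 0.028 to 0.11 above its chromosome.

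The genes of oxygen sensing were near wild type as a group, with a median log2 fold change of 0.073 over 6 members. Hif1a, which encodes the oxygen-labile HIF subunit, was the most abundant per kb. It had 2670 wild-type counts against 1801, 1948 and 2047 in the clones, or 140.0 CPM against 134, 134 and 132. The clones were alike and just below wild type, with a log2 fold change of -0.072 ± 0.067 (SE). Arnt, the stable partner of the HIF dimer, had 1846 wild-type counts against 1139, 1210 and 1247 in the clones, or 96.8 CPM against 84.5, 83.2 and 80.5. All clones were below wild type by a log2 fold change of -0.23 ± 0.076 (SE), with an edgeR p of 0.0269 and an adjusted p of 0.427. Epas1, which encodes the second HIF alpha subunit, differed among clones instead, with 0.36, -0.33 and -0.054 on the log2 scale. The hydroxylase gene Egln1 and Vhl were above wild type in every clone, with log2 fold changes of 0.28 and 0.13.

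Among the 8 hypoxia targets, Ero1l, an oxidase for disulfide formation in the endoplasmic reticulum, had the highest level per kb in T131-3M and Vegfa, the angiogenic growth factor, in the other libraries. Ero1l had 903 wild-type counts against 863, 1002 and 1181 in the clones, or 47.3 CPM against 64.0, 68.9 and 76.2. Every clone was above wild type, with a log2 fold change of 0.56 ± 0.12 (SE), an edgeR p of 0.00435 and an adjusted p of 0.247. Vegfa had 890 wild-type counts against 721, 892 and 758 in the clones, with a log2 fold change of 0.23 ± 0.14 (SE). Its clones were also all above wild type, by 0.20, 0.39 and 0.068. Car9, a carbonic anhydrase known for its tight control by HIF, had 7 wild-type counts against 10, 3 and 8 in the clones, which is too little to tell the libraries apart. Ndrg1 lay between -0.12 and -0.14 in all clones.

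Several hypoxia genes differed among the clones. This pattern was noticed after the values were seen, each clone had 1 library, and the differences between clones cannot be tested. Bnip3, which promotes mitophagy, had 320 wild-type counts against 163, 330 and 286 in T131-3C, T131-3D and T131-3M, or 16.8 CPM against 12.1, 22.7 and 18.5. Ankrd37, an ankyrin repeat gene induced by HIF, had 115 wild-type counts against 70, 130 and 99 in the clones, or 6.03 CPM against 5.19, 8.93 and 6.39. In both, T131-3C was below wild type and T131-3D above. Egln3, a hydroxylase gene that HIF itself induces, had 370 wild-type counts against 201, 433 and 389 in the clones, or 19.4 CPM against 14.9, 29.8 and 25.1. The same order of clones was found for P4ha1 and P4ha2, the prolyl hydroxylases for collagen, but over ranges of only 0.28 and 0.36 on the log2 scale, and 55.2% and 64.4% of all genes tested had a smaller range.

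The order with T131-3D highest and T131-3C lowest thus held for 4 of the 8 targets (Bnip3, Ankrd37, P4ha1 and P4ha2), or 50%, and for 20.1% of all genes tested. With only the 5 targets that had at least 100 counts in every library, it held for 2. Per clone, the median difference of the 8 targets from wild type was -0.014, 0.39 and 0.11 in T131-3C, T131-3D and T131-3M. For the 28 glycolytic and pentose phosphate members tested, the medians were -0.0089, 0.062 and -0.018. T131-3D was the highest clone for 62.5% of the hypoxia targets, 66.7% of the 6 sensing genes and 60.7% of these 28 members, against 36.2% of all genes tested, so that a high T131-3D was not limited to the targets. In a further list of 30 hypoxia targets, of which 26 were tested, the order held for 9, or 34.6%, with medians of -0.037, 0.094 and 0.0078. The range among the clones had a median of 0.34 over the hypoxia targets, from 0.015 for Ndrg1 upwards, and was 0.34 for the glucose transporters as well. It was 0.10 for the upper and 0.15 for the lower glycolytic enzymes, although Pfkp spanned 0.67. The hypoxia targets together had 3105 wild-type counts, against 59157 for upper and 77210 for lower glycolysis. The part of counting error in these ranges was not tested.

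**Figure D5:**
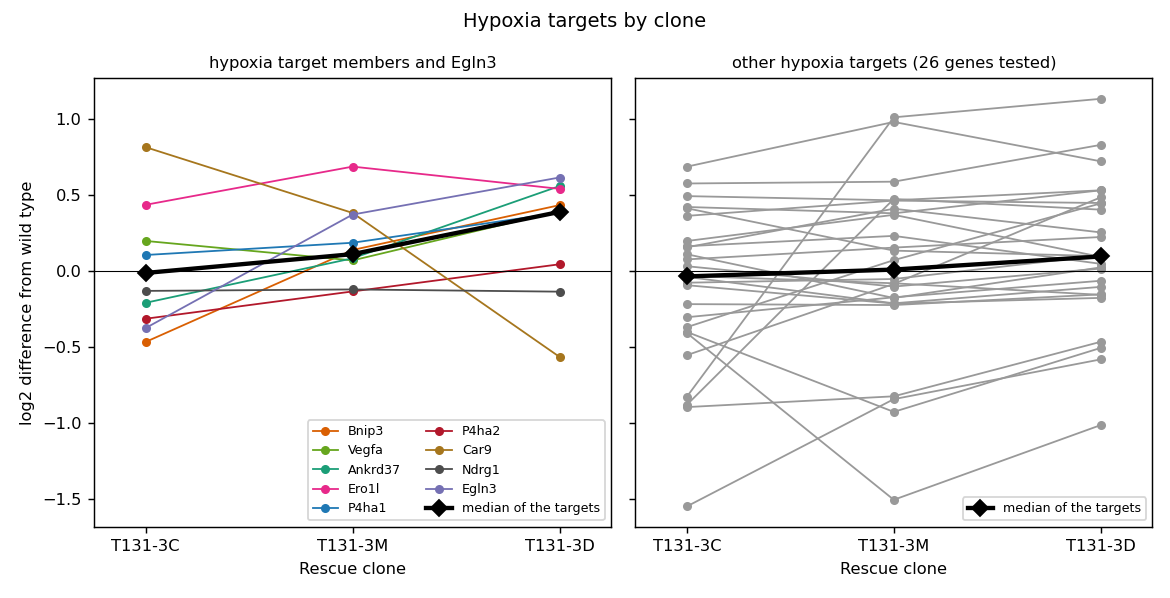
Log2 difference from wild type (y axis) in each rescue clone (x axis) of the 8 hypoxia target members and Egln3 (left, coloured lines) and of 26 other hypoxia targets (right, grey lines). The black line is the median of the targets, without Egln3. It lies at -0.014, 0.11 and 0.39 in T131-3C, T131-3M and T131-3D on the left and at -0.037, 0.0078 and 0.094 on the right, and Car9 with at most 10 counts runs the other way.

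Genes around these pathways gave a similar picture. Of 110 genes in 7 further lists, 89 were tested, none was called, 6 (6.74%) were higher at an unadjusted p under 0.05 and 5 (5.62%) were lower, beside 5.92% and 4.42% of all genes, and the median log2 fold change was 0.014. The higher ones were Pdhb, Rpe, Bhlhe40, Bnip3l, Mxi1 and Zfp395, of which Pdhb, Bnip3l and Zfp395 lie on chromosome 14. With each library centred by chromosome, these 3 went from log2 fold changes of 0.43, 0.44 and 0.50 to 0.082, 0.10 and 0.15. Bhlhe40, a transcriptional repressor of the hypoxia list, had 746 wild-type counts against 849, 939 and 1197 in the clones, with a log2 fold change of 0.80 ± 0.15 (SE) and an adjusted p of 0.201. The DESeq2 Wald test called it, with an adjusted p of 0.00532, and without T131-3D edgeR called it and Pdhb, with adjusted p of 0.00167 and 0.00589. The lower ones were Prps1, Prps2, Hif3a, Ak4 and Mlxip. Prps1 and Prps2 make phosphoribosyl pyrophosphate from the ribose of the pentose phosphate pathway, and all clones were below wild type for both. Prps2 had 587 wild-type counts against 252, 244 and 317 in the clones, with a log2 fold change of -0.72 ± 0.14 (SE), and Prps1 had a log2 fold change of -0.36 ± 0.072 (SE), with edgeR adjusted p of 0.208 and 0.212. Past a size of 1 on the log2 scale with all clones on one side were only Cox4i2, with 29 wild-type counts against 15, 10 and 7 in the clones, and Ppp1r3c, with 13 against 2, 6 and 5, in lists chosen with results of these libraries known.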

How the data were processed

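RNA-seq libraries of 3 Morc3 rescue clones and 1 wild-type line were compared. Alignment to mm10 was done by the authors with STAR, and the deposited values are raw counts per gene, with no normalization. The gene annotation is not stated in the sources used. The reverse-strand column was used, since the kit is directional, and rows that name no gene were left out. Gene rows held 52.7% of read pairs in wild type but 45.1% to 47.0% in the clones, where 21.0% to 23.0% were unmapped against 14.5%. Pairs on no gene were 23.6% to 24.7% and multimapping pairs 7.85% to 8.21%. Rn45s, a ribosomal RNA gene, took 14.7% to 16.0% of gene counts. The test was that of edgeR 4.0.16 under R 4.3.3 (filterByExpr, TMM, glmQLFit, glmQLFTest), over all genes at a Benjamini-Hochberg adjusted p of 0.01. All 4 libraries entered the fit, the spread came from the 3 clones (common biological coefficient of variation 11.3%), and the p-values measure only the spread between these samples. Log2 differences per clone used a prior count of 2. A check of the fit on simulated counts covered only the median fold changes recovered. It used a common dispersion and no clone or chromosome shifts, so it says nothing about the number of genes called here.

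The members, lists and tests were chosen with earlier results of these data known. Values per library are given for members with an unadjusted p under 0.05 or a log2 fold change of at least 0.5 in size with all clones on one side, for the most abundant member per kb of each role, and for members not tested. Pfkp, Vegfa, Car9 and the genes that differed among clones, and in other lists Bhlhe40 and Prps2, were added after their values were seen. Exon lengths came from GENCODE M21 and positions from RefSeq of GRCm38.p6 (22542 symbols matched directly and 1352 by a synonym). Alternatives used DESeq2 1.42.0 and limma 3.58.1, other scalings, filters and columns, and each clone left out.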

Additional observations from a re-analysis of the deposited data

How the results depend on the processing

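No paired analysis was possible because the wild-type group has 1 library. The count of all genes called (1) was 64 with the DESeq2 Wald test and 0 with limma-voom, with edgeR's legacy option and with at least 10 counts in every library, and it ran from 0 (without T131-3M) to 420 (without T131-3D) when a clone was left out. At an adjusted p of 0.05 it was also 1. The members called (0) ran from 0 to 3 when a clone was left out, and were 0 under every other alternative run. The members higher at a p under 0.05 (2) were 0 with chromosome-median offsets, where 4.58% of all genes were higher. Those lower (2) were 1 with at least 10 counts in every library and 0 with DESeq2, where 4.54% and 1.18% of all genes were lower. With a clone left out they ran from 0 (without T131-3M) to 6 (without T131-3D). In these 2 settings 2.18% and 7.44% of all genes were lower. The share of the members was 1.33% without Rn45s. Values near 0 turned sign for Pgk1 (-9.53e-05 without a filter, -0.00046 with at least 10 counts, -0.0059 with chromosome offsets), Epas1 (-0.015 with limma-voom) and Pdk2 (0.0044 with chromosome offsets). With a clone left out, uncalled values on both sides of 0 ran from -0.18 to 0.047 for Slc2a3, -0.020 to 0.031 for Hk2, -0.035 to 0.043 for Gapdh, -0.032 to 0.044 for Pgk1, -0.010 to 0.020 for Pgam1, -0.31 to 0.12 for Pdk2, -0.19 to 0.16 for Epas1, -0.13 to 0.29 for Bnip3 and -0.051 to 0.34 for Ankrd37. The members with at least 100 counts that held the clone order were 2 of 5. The causes were not tested. The depth does not resolve Car9 and Eno1, with at most 11 counts.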

Other observations

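In the further hypoxia list, 5 of the 26 genes tested (19.2%) were below wild type in T131-3C and above it in T131-3D, where 16.6% of all genes tested were. The genes named here were picked after their values were seen, and no test was possible between clones with 1 library each. Stc1, which encodes the secreted hormone stanniocalcin, had 22 counts in wild type against 8, 39 and 38, and differed from wild type by -0.83, 1.13 and 1.01 on the log2 scale in T131-3C, T131-3D and T131-3M, and its relative Stc2 by -0.56, 0.48 and -0.087. Vldlr, a lipoprotein receptor gene, differed by -0.37, 0.44 and 0.070, and Car12, a carbonic anhydrase gene, with 49 against 18, 50 and 56 counts, by -0.88, 0.40 and 0.47. In each of them T131-3C was below wild type and T131-3D above, as for Bnip3, Ankrd37 and Egln3. The remaining gene of the 5 was Mif, which differed by only -0.079, 0.10 and -0.054. The share of such genes in the list was close to that of all genes tested. Most of the list did not follow, and Ndufa4l2 was above wild type in all clones (0.57, 0.83 and 0.59) and Ak4 below in all (-0.40, -0.51 and -0.93). Stc1 lies on chromosome 14, whose median was above wild type by 0.34 to 0.35 in all clones.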
